A study of Mus musculus with 20 samples.

Results

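The set described here holds 9 genes of glucose and glycogen metabolism in mouse liver: Slc2a2, Gckr, Pklr, Pck1, Fbp1, G6pc, Ppargc1a, Gys2 and Pygl. They were chosen by name, with earlier results of these data known. They are 9 of the 25444 gene loci in the deposited tables, and all 9 were among the 13704 genes with enough counts to be tested. The livers came from 20 mice at 20 weeks of age, 5 in each of 4 groups. These were females (B6 F) and males (B6 M) of the inbred strain C57BL/6N (B6), and females (C3 F) and males (C3 M) of the inbred strain C3H/HeN (C3). No mouse carried a transgene or received an agent. All mice were single housed with free access to food, and the left lateral lobe was taken in the morning. Males and females were kept in separate rooms, so in comparisons of females with males the room cannot be told apart from sex.

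The liver holds blood glucose steady. After a meal it takes glucose up, traps it as glucose 6-phosphate, stores it as glycogen and breaks part of it down by glycolysis. In fasting it releases glucose, first from glycogen and then by gluconeogenesis from lactate, amino acids and glycerol. Insulin favors storage and glycolysis. Glucagon, acting through cyclic AMP and the factor CREB, favors release and raises transcription of gluconeogenic genes.

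Libraries held between 27370921 and 46835745 counts and were sequenced in 3 pools. Pool 1 held 8 libraries, pool 2 held 5 and pool 3 held 7, with 1 or 2 mice of every group per pool. Depth followed the pool, with the highest depth in pool 3 (38928480 to 46835745 counts). The labels of sex fitted the libraries, since the Y-linked gene Ddx3y had at most 1 count in any female library and at least 2340 in any male library. All 6 hepatocyte markers were present at 1 TPM or more. TPM values are counts divided by gene length and scaled to a common sum, and CPM values are counts scaled by library size and not corrected for length. In bulk tissue, fewer cells of a type and less RNA per cell cannot be told apart.

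None of the 9 genes reached the thresholds of the study (adjusted p under 0.001 and a log2 fold change over 0.5) in any comparison by edgeR. Among all genes tested, these thresholds were passed by 6.34% between B6 F and B6 M, 6.9% between C3 F and C3 M, 9.4% between C3 F and B6 F, 9.64% between C3 M and B6 M, and 0.401% in the test of whether the sex difference depended on strain. By DESeq2, 1 of the 9 (Ppargc1a) passed in each sex comparison and none did in the other tests. At an adjusted p under 0.05 with no limit on fold, 4 of the 9 differed between B6 F and B6 M, beside 34.6% of all genes. In the C3 strain 1 of the 9 differed between the sexes, beside 40.0% of all genes. Between the strains, 4 of the 9 differed in females and 4 of the 9 in males, beside 32.9% and 34.5% of all genes. For the interaction of sex and strain the count was 0 of 9, beside 2.96%. The numbers of the 9 genes at an unadjusted p under 0.05 were 4, 1, 4, 4 and 4 in the same order, beside 44.4%, 49.0%, 41.9%, 44.3% and 16.1% of all genes. The 4 genes of the interaction test at this unadjusted level were Pklr, Pck1, Gys2 and Pygl. Median log2 fold changes of the 9 genes were -0.0925, 0.1115, 0.0275, -0.0346 and 0.2779, beside 0.0018, 0.0146, 0.0195, 0.0146 and 0.0067 over all genes. With 9 genes, each gene makes up 11.1% of the set, so these shares are coarse. A gene is called higher or lower here where the adjusted p of edgeR was under 0.05.

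**Figure D1:**
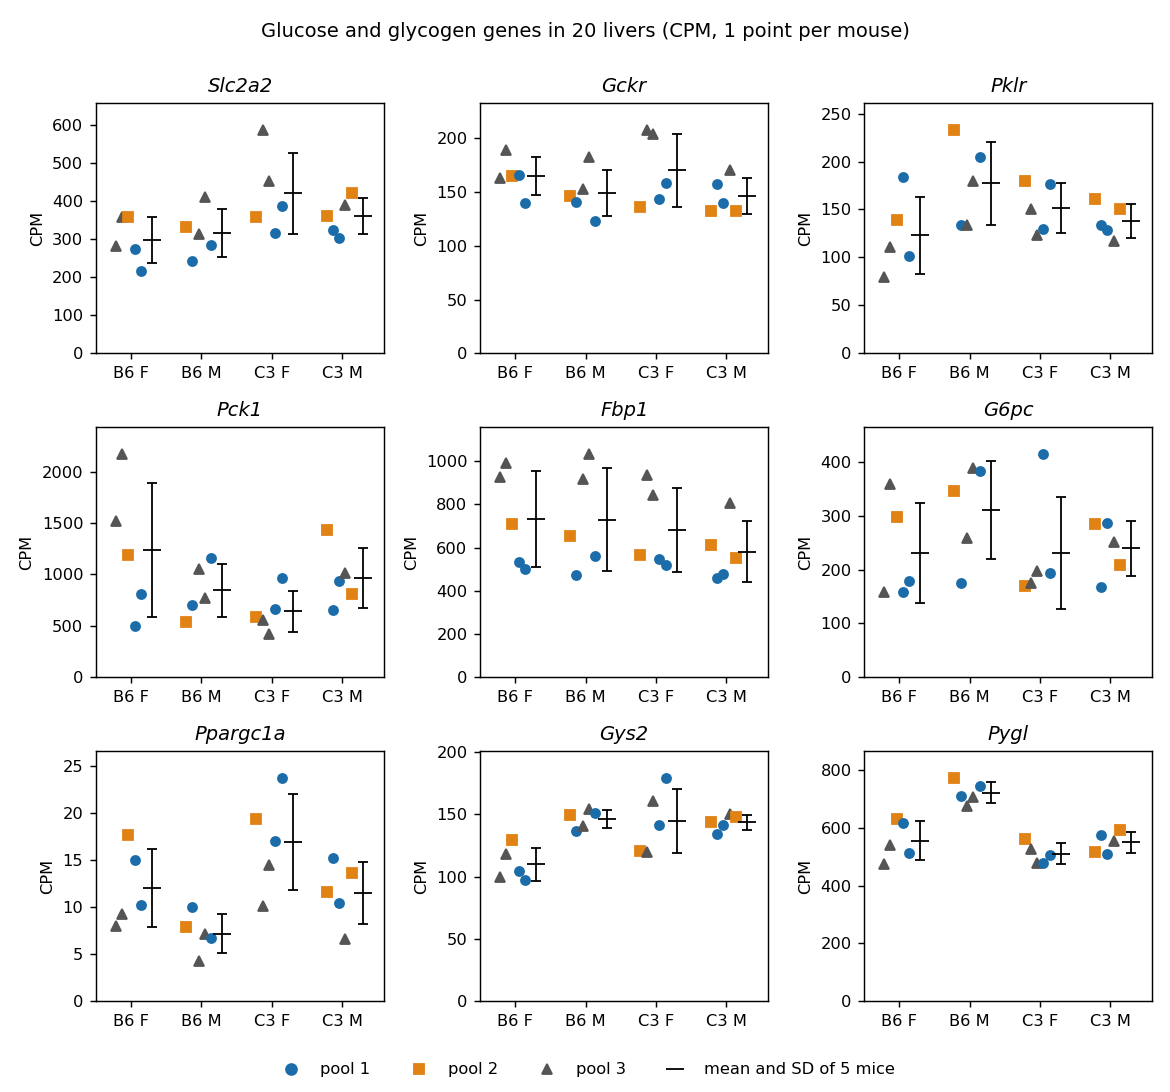
Each panel plots the CPM of a gene (y axis, starting at 0) in the 4 groups (x axis), with 1 point per mouse, the symbol giving the sequencing pool, and the mean with SD of 5 mice beside the points. Gys2 and Pygl of B6 F lay below all B6 M livers, and Fbp1 in pool 3 (807 to 1034 CPM) lay above Fbp1 in pool 1 (458 to 563 CPM) in every group.

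**Figure D2:**
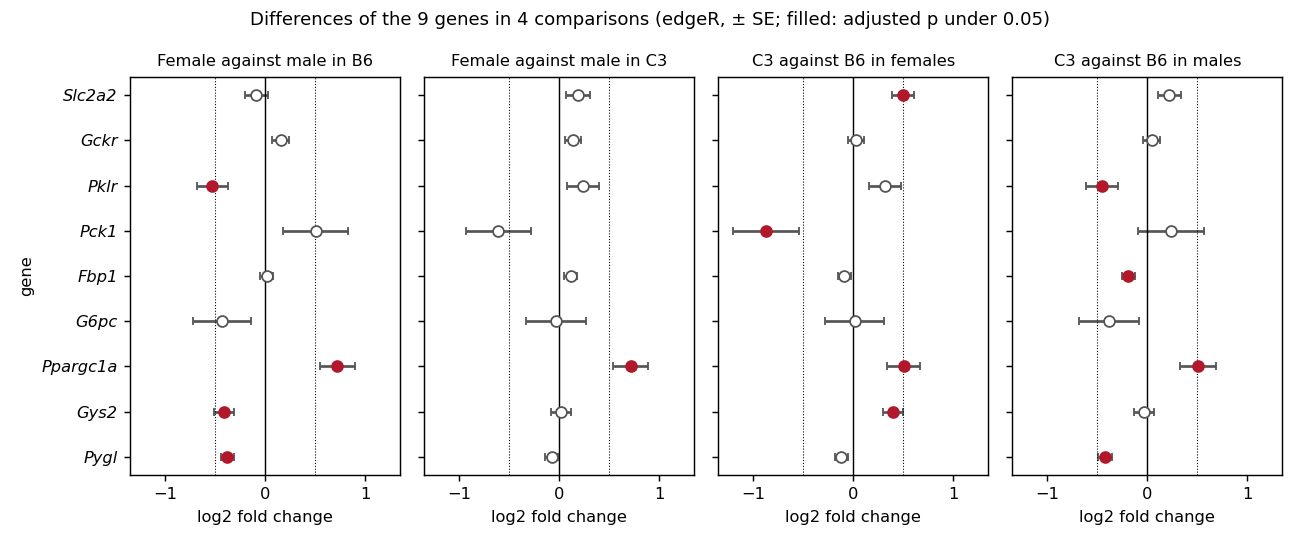
Each panel plots the log2 fold change of edgeR with its SE (x axis) for the 9 genes (y axis) in a pairwise comparison. Filled points have an adjusted p under 0.05, and dotted lines mark a log2 fold change of 0.5 in either direction. Ppargc1a had a filled point above 0 in all 4 panels.

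Slc2a2 encodes GLUT2, the glucose transporter of the hepatocyte membrane (mm9 chr3:28596825-28627282, forward strand). Values are given in the order of mouse 1 to mouse 5 of a group here and below. Slc2a2 stood at 281, 357, 357, 273 and 215 CPM in B6 F. In C3 F it stood at 359, 587, 453, 315 and 386 CPM. C3 F therefore reached the higher values, but the ranges of both female groups overlapped. Slc2a2 was 1.41-fold higher in C3 F than in B6 F, with a log2 fold change of 0.50 ± 0.11 (SE) and an adjusted p of 0.00254 by edgeR. The difference was 0.52 in pool 1, 0.01 in pool 2 and 0.70 in pool 3 on the log2 scale, and without the 7 libraries of pool 3 the test was no longer passed (0.34, adjusted p = 0.0915, edgeR). Males had 242 to 411 CPM in B6 and 303 to 422 CPM in C3, and the strain difference in males was 0.22 ± 0.12 (SE, log2; adjusted p = 0.157, edgeR). The sex differences were -0.09 ± 0.11 in B6 and 0.19 ± 0.12 in C3 (log2 ± SE), and neither passed the test.

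Gckr encodes a regulatory protein of hepatic glucose use that acts in the nucleus when glucose is low (mm9 chr5:31599954-31629675, forward strand). Its level was similar in all groups, with 164.7 ± 17.4 CPM in B6 F, 149 ± 21.6 in B6 M, 170.0 ± 33.9 in C3 F and 146 ± 16.9 in C3 M (mean ± SD, n = 5). Log2 fold changes lay between 0.03 in C3 F versus B6 F and 0.15 in B6 F versus B6 M, and no comparison passed the test by edgeR. By limma on log2(TPM + 1), Gckr was higher in females by 0.27 in B6 (adjusted p = 0.0216) and by 0.24 in C3 (adjusted p = 0.0348). The limma fits took TPM with no further normalization. In B6 F versus B6 M, limma moved all of the 9 genes upward except Ppargc1a. Slc2a2 went from -0.09 to 0.02 and Gys2 from -0.42 to -0.30, while Ppargc1a went from 0.72 to 0.62. The part of scaling in the limma results was not tested.

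Pklr encodes the liver form of pyruvate kinase, which carries out the last step of glycolysis (mm9 chr3:88940064-88950516, forward strand). In B6 F it stood at 80.0, 111, 139, 184 and 101 CPM. In B6 M it stood at 233, 134, 134, 179.8 and 205 CPM. The groups overlapped, with mice 3 and 4 of B6 F inside the male range and the other 3 females below it. Pklr was 1.45-fold lower in B6 F than in B6 M (log2 fold change -0.53 ± 0.16 SE, adjusted p = 0.0139, edgeR). The call was lost without pool 3 (-0.41, adjusted p = 0.179), without the pool as a covariate (adjusted p = 0.0809) and with only the groups compared in the fit (adjusted p = 0.059), all by edgeR. Without mouse 4 of B6 F the log2 fold change was -0.72 and the adjusted p 0.000453, so that the thresholds of the study were then passed. In C3 the values were 180.1, 150.4, 123, 129 and 176 CPM in females and 161, 134, 128, 117 and 150.4 CPM in males. These groups overlapped, with a log2 fold change of 0.24 ± 0.16 (SE; adjusted p = 0.244, edgeR). In C3 F versus B6 F the log2 fold change of Pklr was 0.32 ± 0.16 (SE; adjusted p = 0.132, edgeR), and without mouse 4 of B6 F it was 0.51 and passed the test (adjusted p = 0.00548, edgeR). Pklr was also 1.37-fold lower in C3 M than in B6 M (-0.45 ± 0.16 SE, adjusted p = 0.034, edgeR), a call that was kept in 14 of the 20 fits that each left out a mouse and was lost without pool 3 (adjusted p = 0.133). The sex difference in C3 exceeded that in B6 by 0.77 ± 0.22 on the log2 scale (SE; unadjusted p = 0.00281, adjusted p = 0.0718, edgeR). By DESeq2 the adjusted p of this Pklr interaction was 0.0208. Within pools, the B6 sex difference was -0.28, -0.74 and -0.72 and the C3 sex difference 0.20, 0.21 and 0.22 in pools 1, 2 and 3. The direction was thus the same in every pool.

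Pck1 encodes the cytosolic phosphoenolpyruvate carboxykinase, the enzyme that commits carbon to gluconeogenesis (mm9 chr2:172978574-172984754, forward strand). Pck1 stood at 1516, 2175, 1190.0, 494 and 812 CPM in B6 F. In B6 M it stood at 538, 702, 1057, 768 and 1157 CPM. C3 F had 589, 561, 422, 663 and 964 CPM, and C3 M had 1434, 657, 935, 1012 and 814 CPM. The ranges of all 4 groups overlapped, and the highest values came from mice 1 and 2 of B6 F, both in pool 3. Pck1 was 1.83-fold lower in C3 F than in B6 F (log2 fold change -0.88 ± 0.33 SE, adjusted p = 0.0486, edgeR). This difference was 0.34 in pool 1, -1.01 in pool 2 and -1.90 in pool 3, and without pool 3 it was -0.16 (adjusted p = 0.816, edgeR). The adjusted p of Pck1 by DESeq2 was 0.0825, and the call was kept in 6 of the 20 fits that each left out a mouse. The other differences were 0.50 ± 0.32 in B6 F versus B6 M, -0.61 ± 0.33 in C3 F versus C3 M and 0.24 ± 0.33 in C3 M versus B6 M (log2 ± SE), and none passed the test. The Pck1 difference of B6 F and B6 M was 0.24 without mouse 2 of B6 F, 0.74 without mouse 4 of B6 F and 0.04 without pool 3. The interaction term was -1.11 ± 0.46 (SE; unadjusted p = 0.0274, adjusted p = 0.235, edgeR), and its sign was not the same in all pools (0.54, -2.02 and -2.07).

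Fbp1 encodes fructose 1,6-bisphosphatase, a control point of gluconeogenesis (mm9 chr13:62966113-62989642, reverse strand). It stood at 654, 472, 916, 1034 and 563 CPM in B6 M. In C3 M it stood at 612, 458, 478, 807 and 550.2 CPM. The ranges overlapped almost fully. Fbp1 was 1.14-fold lower in C3 M than in B6 M (-0.19 ± 0.07 SE, adjusted p = 0.0349, edgeR), with -0.14, -0.17 and -0.27 in pools 1, 2 and 3. This small difference failed the test without pool 3 (adjusted p = 0.32), without the filter on low counts (adjusted p = 0.0573) and in 6 of the 20 fits that each left out a mouse, all by edgeR. The other log2 differences of Fbp1 lay between -0.09 and 0.11 and did not pass the test by edgeR, while limma on log2(TPM + 1) gave 0.22 in C3 F versus C3 M (adjusted p = 0.0121). In that comparison limma also moved Pygl upward, from -0.08 to 0.03, and G6pc from -0.03 to 0.01.

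G6pc encodes the catalytic subunit of glucose 6-phosphatase, which releases free glucose at the end of gluconeogenesis and glycogen breakdown (mm9 chr11:101229030-101239217, forward strand). It stood at 158, 359.8, 298, 159 and 179 CPM in B6 F. In B6 M it stood at 346, 175, 259, 388 and 383 CPM. C3 F had 169.9, 176, 198, 416 and 193 CPM, and C3 M had 285, 168, 286, 251 and 208 CPM. In C3 F mouse 4 lay far above the other 4 females, and all groups overlapped. The log2 fold changes were -0.43 ± 0.29 in B6 F versus B6 M, -0.03 ± 0.30 in C3 F versus C3 M, 0.01 ± 0.30 in C3 F versus B6 F and -0.38 ± 0.30 in C3 M versus B6 M (SE), and none passed the test. The interaction terms were 0.40 ± 0.42 for G6pc, 0.28 ± 0.16 for Slc2a2, 0.10 ± 0.09 for Fbp1 and -0.02 ± 0.12 for Gckr (log2 ± SE), and none passed the test.

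Ppargc1a encodes PGC-1α, a coactivator that raises transcription of gluconeogenic and mitochondrial genes in fasting (mm9 chr5:51845488-51958964, reverse strand). It stood at 7.96, 9.23, 17.7, 15.0 and 10.3 CPM in B6 F. In B6 M it stood at 7.86, 9.97, 4.26, 7.13 and 6.69 CPM. C3 F had 19.4, 10.1, 14.5, 17.0 and 23.8 CPM, and C3 M had 11.6, 15.2, 10.5, 6.56 and 13.7 CPM. C3 F held the highest values and B6 M the lowest, while the ranges of the groups compared overlapped in every comparison. Ppargc1a was 1.64-fold higher in B6 F than in B6 M (log2 fold change 0.72 ± 0.17 SE, adjusted p = 0.00397, edgeR). It was likewise 1.64-fold higher in C3 F than in C3 M (0.71 ± 0.17 SE, adjusted p = 0.00383, edgeR). By DESeq2 the adjusted p of Ppargc1a was 0.000362 in B6 and 0.000482 in C3. The sex difference was positive in every pool, with 0.60, 1.17 and 0.63 in B6 and 0.67, 0.62 and 0.88 in C3 for pools 1, 2 and 3 (log2). The interaction term was -0.01 ± 0.24 (SE; adjusted p = 0.997, edgeR), which does not show that the sex difference was equal in both strains.

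Between the strains, Ppargc1a was 1.42-fold higher in C3 F than in B6 F (0.50 ± 0.17 SE, adjusted p = 0.0279) and 1.42-fold higher in C3 M than in B6 M (0.51 ± 0.18 SE, adjusted p = 0.0342), both by edgeR. These strain differences were also positive in every pool. The call was kept in 16 of 20 fits that each left out a mouse for females and in 15 of 20 for males, with the highest adjusted p at 0.0851 and 0.126. Without the pool as a covariate, all 4 differences of Ppargc1a failed the test, with adjusted p between 0.0739 and 0.247 (edgeR). Without pool 3 the call in females was lost too (0.48, adjusted p = 0.139, edgeR), and by limma on log2(TPM + 1) Ppargc1a lost both strain calls (adjusted p = 0.0599 and 0.0864).

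The promoters of the genes were taken from RefSeq (GRCm38.p6, a later build than the mm9 of the count tables), each as 250 bases before and 50 bases after a transcription start. Entries were found for 8 of the 9 genes (all but Gys2), with 2 for Pklr, so 9 sequences were searched. Promoters are shown for the 2 gluconeogenic enzymes that varied most between mice, Pck1 and G6pc, and for Ppargc1a, which differed in all 4 comparisons. Capitals mark ACGTCA (the core of the cyclic AMP response element, searched on both strands) in Pck1 (chr2:173152823-173153122, forward strand) and Ppargc1a (chr5:51567676-51567975, reverse strand). In G6pc (chr11:101367466-101367765, forward strand) they mark TGTTTGC (a forkhead factor motif, searched on both strands) and TATAAA (the TATA box, searched on the strand of the gene).
Pck1: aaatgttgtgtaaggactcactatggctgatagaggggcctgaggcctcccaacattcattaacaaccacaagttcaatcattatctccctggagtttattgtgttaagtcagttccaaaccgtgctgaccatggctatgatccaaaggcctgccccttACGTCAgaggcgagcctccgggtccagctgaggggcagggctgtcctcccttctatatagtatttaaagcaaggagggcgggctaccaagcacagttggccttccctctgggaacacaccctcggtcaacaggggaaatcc
Ppargc1a: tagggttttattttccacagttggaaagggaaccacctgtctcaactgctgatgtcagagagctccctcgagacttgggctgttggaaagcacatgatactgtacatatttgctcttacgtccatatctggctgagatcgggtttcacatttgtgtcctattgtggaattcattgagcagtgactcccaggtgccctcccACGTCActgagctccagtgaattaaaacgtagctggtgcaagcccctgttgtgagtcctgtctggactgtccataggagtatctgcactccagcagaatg
G6pc: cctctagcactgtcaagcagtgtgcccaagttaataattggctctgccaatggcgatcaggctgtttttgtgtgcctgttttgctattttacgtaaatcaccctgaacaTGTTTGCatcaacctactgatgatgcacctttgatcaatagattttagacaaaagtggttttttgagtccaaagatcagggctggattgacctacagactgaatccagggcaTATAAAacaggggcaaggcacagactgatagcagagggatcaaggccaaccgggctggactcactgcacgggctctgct
ACGTCA started at -91 in Pck1 and at -50 in Ppargc1a relative to the transcription start, and 7.51% of all 32851 promoters held it. In G6pc, TGTTTGC started at -141 and TATAAA at -29, and these motifs occurred in 5.07% and 8.32% of all promoters. The full response element TGACGTCA, which contains ACGTCA, was in none of the 9 sequences and in 1.79% of all promoters. The E-box CACGTG was likewise in none of them and in 7.15% of all promoters. A match is a description of letters, and its absence says only that the letters are not in this window.

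Gys2 encodes the liver glycogen synthase, the enzyme that extends glycogen chains (mm9 chr6:142371133-142421629, reverse strand). It stood at 99.8, 118, 129.5, 105 and 97.7 CPM in B6 F. In B6 M it stood at 149.9, 137, 141, 154 and 151 CPM. Every B6 F liver lay under every B6 M liver. Groups that do not overlap were found for 2 of the 9 genes in this comparison, Gys2 and Pygl, beside 10.9% of all genes. Gys2 was 1.33-fold lower in B6 F than in B6 M (-0.42 ± 0.10 SE, adjusted p = 0.0038, edgeR). The difference was -0.51, -0.21 and -0.44 in pools 1, 2 and 3, and without pool 3 the adjusted p was 0.0611 (-0.39, edgeR). C3 F had 121, 120.2, 161, 141 and 179.6 CPM and C3 M had 144, 134, 141, 150.0 and 148 CPM. The male values fell inside the wider female range, and the log2 fold change was 0.02 ± 0.10 (SE; adjusted p = 0.917, edgeR). Gys2 was 1.32-fold higher in C3 F than in B6 F (0.40 ± 0.10 SE, adjusted p = 0.00491, edgeR), with 0.66, -0.10 and 0.36 in pools 1, 2 and 3. Its sign thus differed in pool 2, and without pool 3 it was 0.41 with an adjusted p of 0.0541 (edgeR). With only the groups compared in the fit, the adjusted p of Gys2 was 0.0523 (edgeR). In males the strain difference was -0.03 ± 0.10 (SE; adjusted p = 0.823, edgeR). The interaction term was 0.43 ± 0.14 (SE; unadjusted p = 0.00736, adjusted p = 0.123, edgeR).

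Pygl encodes the liver glycogen phosphorylase, which frees glucose 1-phosphate from glycogen (mm9 chr12:71291802-71328670, reverse strand). It stood at 475, 541, 631, 617 and 511 CPM in B6 F. In B6 M it stood at 773, 708, 676, 705 and 744 CPM. C3 M had 517, 575, 511, 553 and 590.4 CPM, and C3 F had 562, 528, 476, 476 and 506 CPM. All 5 B6 M livers lay above every other liver of the study. Pygl was 1.30-fold lower in B6 F than in B6 M (-0.38 ± 0.07 SE, adjusted p = 0.000319, edgeR), with -0.37, -0.29 and -0.45 in pools 1, 2 and 3. It was 1.34-fold lower in C3 M than in B6 M (-0.42 ± 0.07 SE, adjusted p = 9.32e-05, edgeR), with -0.42, -0.48 and -0.32 in the pools. Of the 9 genes, Pygl alone had groups that do not overlap between the males of both strains, beside 15.1% of all genes. No gene of the set had such groups in C3 F versus C3 M or in C3 F versus B6 F, beside 13.1% and 12.8% of all genes. The remaining differences were -0.08 ± 0.07 in C3 F versus C3 M and -0.12 ± 0.07 in C3 F versus B6 F (log2 ± SE), and neither passed the test by edgeR, while limma on log2(TPM + 1) gave -0.19 for Pygl in the latter (adjusted p = 0.0378). In C3 F versus B6 F limma also moved Gckr downward, from 0.03 to -0.04, and G6pc from 0.01 to -0.07. The interaction term of Pygl was 0.30 ± 0.10 (SE; unadjusted p = 0.00563, adjusted p = 0.106, edgeR).

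The sequencing pool went with larger differences in some of these genes than sex or strain did. Between pools 3 and 1, 4 of the 9 genes had an adjusted p under 0.05, beside 58.3% of all genes, and 2 of the 9 (Fbp1 and Ppargc1a) also passed the thresholds of the study, beside 20.0%. Fbp1 averaged 509 ± 37.3 CPM in pool 1 (SD, n = 8), 618 ± 64.5 in pool 2 (n = 5) and 922 ± 78.6 in pool 3 (n = 7). Pool 3 lay above both other pools with no overlap, while pools 1 and 2 overlapped. Fbp1 was higher in pool 3 than in pool 1 by 0.84 ± 0.05 (log2 ± SE, adjusted p = 1.77e-10, edgeR), and higher in pool 2 than in pool 1 by 0.30 ± 0.06 (adjusted p = 0.00124, edgeR). Slc2a2 and Gckr were higher in pool 3 than in pool 1 by 0.45 ± 0.09 (adjusted p = 0.00044, edgeR) and 0.30 ± 0.07 (adjusted p = 0.000815, edgeR). Ppargc1a was lower in pool 3 than in pool 1, by -0.68 ± 0.14 (log2 ± SE, adjusted p = 0.000445, edgeR). Between pools 2 and 1, 2 of the 9 genes (Fbp1 and Slc2a2) had an adjusted p under 0.05, beside 23.5% of all genes, and none passed the thresholds of the study, beside 1.16%. Pools differed in depth as given above, and the part of depth in these differences was not tested.

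**Figure D3:**
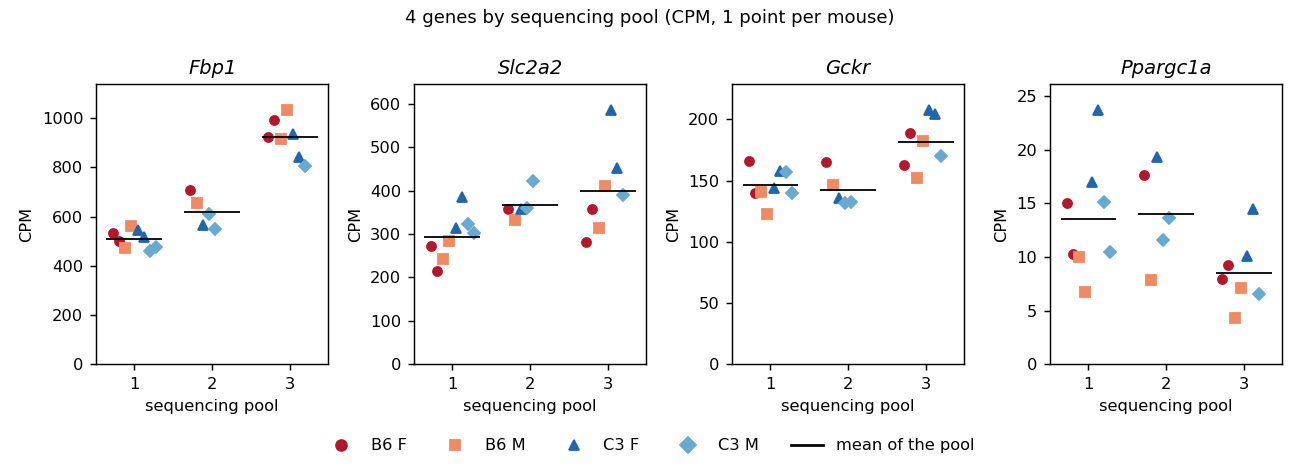
Each panel plots the CPM of a gene (y axis, starting at 0) by sequencing pool (x axis), with 1 point per mouse, the symbol giving the group and the line the mean of the pool. Fbp1 of pool 3 (807 to 1034 CPM) lies above that of pool 1 (458 to 563 CPM), and Ppargc1a is lowest on average in pool 3 (8.53 CPM).

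Levels between genes were compared per length, in TPM. Over the 20 livers Fbp1 averaged 963 ± 309 TPM (SD, n = 20), followed by Pck1 (738 ± 366), Pygl (429 ± 66.6), Slc2a2 (282 ± 71.4), G6pc (232 ± 79.1), Gckr (163 ± 30.8), Pklr (109 ± 26.6) and Gys2 (106 ± 14.8). Ppargc1a was far lower, with 3.76 ± 1.60 TPM. The other 8 genes lay between the percentiles 95.55 and 99.5 of all loci, and Ppargc1a at the percentile 63.5. Within groups, Fbp1 and Pck1 overlapped in all 4 groups, and so did Slc2a2 and G6pc. Pklr and Gys2 also overlapped in all 4 groups. Pygl was separate from the next gene below it in B6 F, B6 M and C3 M but not in C3 F, where the highest Slc2a2 liver (497 TPM) exceeded the lowest Pygl liver (337 TPM). Ppargc1a was below every other gene of the set in every liver.

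The genes differed in how far mice of the same group and pool lay apart. The residual SD of log2 CPM, after group and pool, was 0.57 for Pck1 and 0.51 for G6pc, at the percentiles 95.1 and 92.5 of the genes tested. It was 0.10 for both Fbp1 and Pygl, at the percentiles 20.4 and 23.1. Over all 20 livers, with differences of group and pool included, TPM ranged 5.80-fold for Ppargc1a and 5.42-fold for Pck1 between the lowest and highest liver. The range was 1.65-fold for Pygl and 1.73-fold for Gys2. The genes with the widest residual SD, Pck1 and G6pc, were also those with the widest errors in every comparison above.

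Residuals of the 9 genes were compared between pairs over the 20 livers, as a description without a test. Both genes of a pair were read from the same library in each liver, so they share its depth, normalization and time of collection. Of 36 pairs, 28 had a positive Pearson correlation, with a median of 0.317. Fbp1 and G6pc, which catalyze late steps of gluconeogenesis, had the highest value (Pearson r = 0.767, Spearman rho = 0.743). Slc2a2 followed, with Gckr (0.692), Pklr (0.677) and Pygl (0.636), and Pklr had 0.660 with Pygl. Pck1 had the lowest values, with -0.499 for Gckr and -0.379 for Pygl, and it had 0.442 for G6pc and 0.380 for Fbp1 (Pearson r).

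**Figure D4:**
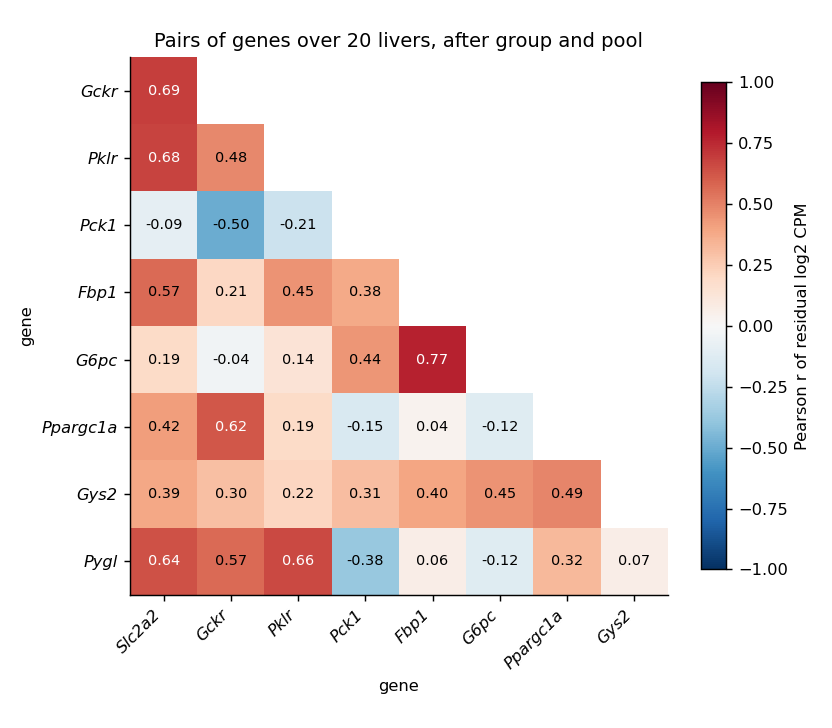
Each cell gives the Pearson correlation of the residual log2 CPM of a pair of genes (both axes) over 20 livers after group and pool were fitted, with red for positive and blue for negative values. Fbp1 with G6pc is highest (0.767) and Gckr with Pck1 lowest (-0.499).

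Of all 13704 genes, the residuals most like those of each gene were found for Dhtkd1 and Suclg2 with Gckr (Pearson r = 0.905 and 0.886, n = 20), Plekhm1 and Dennd4a with Ppargc1a (0.902 and 0.882), Ces2a and Zcchc14 with Slc2a2 (0.885 and 0.848), and Atp5a1 and Aifm1 with Pygl (0.880 and 0.869). Lower maxima were found for Sdhd and Gm2a with Pklr (0.846 and 0.841), Zfp963 and Gprasp1 with Pck1 (0.846 and 0.820), Eif1 and B930025P03Rik with Gys2 (0.829 and 0.822), 2810410L24Rik and Slc25a47 with G6pc (0.827 and 0.804), and P3h4 and Pear1 with Fbp1 (0.794 and 0.791). These are the largest of many values and carry no test.

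A wider list of 82 other genes of the pathway was then examined, of which 79 were tested. The thresholds of the study were passed by 5 of 79 in B6 F versus B6 M (6.33%), 7 in C3 F versus C3 M (8.86%), 5 in C3 F versus B6 F (6.33%), 2 in C3 M versus B6 M (2.53%) and 0 in the interaction test. Beside them stand 6.34%, 6.9%, 9.4%, 9.64% and 0.401% of all genes. At an adjusted p under 0.05 (edgeR) the shares were 41.8%, 46.8%, 27.8%, 21.5% and 2.53%, beside 34.6%, 40.0%, 32.9%, 34.5% and 2.96% of all genes. Median log2 fold changes over the list were -0.0383, 0.0502, 0.0317, -0.0001 and 0.0676 in the same order, near those of all genes given above.

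In the 20 fits that each left out a mouse, the call at the thresholds of the study was lost most often for Got1 (14), Pdk4 (13), Mlx (8), Pfkfb3 (7) and Hk2 (6). Of the 19 calls of the wider list, 16 were lost at these thresholds without the pool as a covariate and 13 without pool 3. Without the pool covariate the adjusted p of Pgam1 in B6 was 0.16, and that of Pgm1 was 0.256 in C3 F versus C3 M and 0.15 in C3 F versus B6 F (edgeR). In B6 F versus B6 M, Gbe1, the glycogen branching enzyme, was lower (log2 fold change -0.59 ± 0.09 SE, adjusted p = 9.53e-05, edgeR). The glycolytic genes Gapdh (-0.53) and Pgam1 (-0.51) were lower as well, and Got1, which moves carbon and nitrogen between aspartate and oxaloacetate, was 1.88-fold higher (0.91 ± 0.18 SE, adjusted p = 0.000914, edgeR). Gapdh and Pgam1 have near-identical pseudogene copies and read pairs that mapped to several places were not counted, so their values are uncertain. Of the 12 other genes of glycogen synthesis, 1 was higher and 4 were lower at an adjusted p under 0.05 (edgeR). Of the 10 other genes of glycogen breakdown tested, 3 were higher and 2 lower. Beside both stand 16.2% of all genes higher and 18.4% lower. In C3 F versus C3 M, Gbe1 (-0.26), Gapdh (-0.28), Pgam1 (-0.29) and Got1 (0.57) differed in the same direction as in B6. Each had an adjusted p under 0.05 there (edgeR) but missed the thresholds of the study.

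In C3 F versus C3 M, 20 of the 79 genes were lower and 17 higher at an adjusted p under 0.05 (edgeR). Beside them stand 19.9% of all genes lower and 20.1% higher. At the thresholds of the study 4 were lower in females. These were Stbd1, which ties glycogen to membranes (2.64-fold, -1.40 ± 0.21 SE), and Pfkfb3, a producer of the glycolytic activator fructose 2,6-bisphosphate (2.20-fold, -1.14 ± 0.21). The others were the transcription factor Klf15 (1.70-fold, -0.77 ± 0.13) and Mlx, the partner of the carbohydrate response factor (1.43-fold, -0.52 ± 0.10). Higher in females at these thresholds was Pdk4, a kinase that turns off pyruvate dehydrogenase (3.08-fold, 1.63 ± 0.32). So were Pygb, the brain form of glycogen phosphorylase (1.58-fold, 0.66 ± 0.08), and Pgm1, a phosphoglucomutase (1.46-fold, 0.55 ± 0.08). In B6 F versus B6 M, Stbd1 (-0.59), Mlx (-0.39), Pygb (0.44) and Pgm1 (0.33) differed in the same direction at an adjusted p under 0.05 (edgeR). The B6 values of Pfkfb3 (-0.44), Klf15 (-0.15) and Pdk4 (-0.22) did not pass that rule. Pdk4 stood at 34.3, 24.2, 25.4, 33.9 and 30.3 CPM in C3 F. In C3 M it stood at 8.94, 8.15, 9.41, 11.8 and 12.0 CPM. The sexes did not overlap in C3, while B6 F (8.20 to 26.3 CPM) and B6 M (7.68 to 31.6 CPM) overlapped widely. The interaction term of Pdk4 was 1.84 ± 0.45 (SE; adjusted p = 0.0282, edgeR), and that of Pdk1, a related kinase, 0.58 ± 0.15 (adjusted p = 0.0479, edgeR). No other interaction term was at an adjusted p under 0.05 among the 79 listed genes.

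Between the strains, Hk3, a hexokinase typical of myeloid cells, was 2.84-fold lower in C3 F than in B6 F (-1.51 ± 0.17 SE, adjusted p = 1.76e-06, edgeR) and 2.02-fold lower in C3 M than in B6 M (-1.02 ± 0.18 SE, adjusted p = 0.000269, edgeR). Hk2, another hexokinase that is low in normal hepatocytes, was 2.08-fold lower in C3 F than in B6 F (-1.05 ± 0.20 SE, adjusted p = 0.000571, edgeR). In C3 M versus B6 M the Hk2 difference was -0.91 (adjusted p = 0.00356, edgeR), which missed the thresholds of the study. Hk2 was low in these livers, with group means from 0.448 TPM in C3 M to 1.355 TPM in B6 F. The summed level of Kupffer cell and macrophage markers, 6 of 6 at 1 TPM or more, was 358 to 481 TPM in B6 F, 249 to 363 in C3 F, 220.3 to 330 in B6 M and 156 to 233 in C3 M, and its part in these results was not tested. Gapdh was lower in C3 in both sexes (-0.58 in females and -0.83 in males, log2). Pdk1 (1.66-fold, 0.73 ± 0.11 SE) and Pgm1 (1.49-fold, 0.58 ± 0.08 SE) were higher in C3 F than in B6 F. In C3 M versus B6 M, Pgm1 was higher too (0.36, adjusted p = 0.00215, edgeR), while Pdk1 did not pass the test (0.15, adjusted p = 0.289, edgeR).

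**Figure D5:**
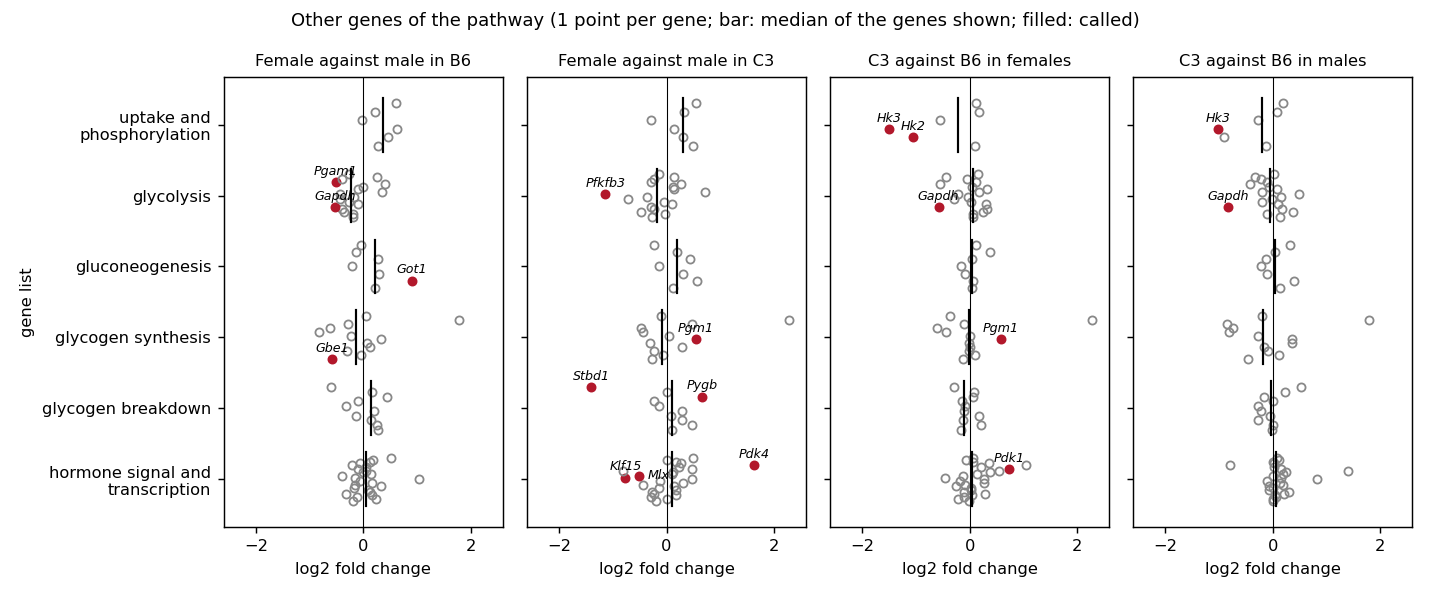
Each panel plots the log2 fold change of edgeR (x axis) for the other genes of the pathway that were tested and are reported here, grouped by list (y axis), with 1 point per gene and a bar at the median of the genes shown. Filled and named points passed the thresholds of the study, and they lie on both sides of 0 in each panel but the last, where Hk3 and Gapdh are both lower.

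Lists of genes that respond to feeding and to the clock were read beside these results, since both are known to move glucose genes. Of 13 genes responsive to insulin and feeding, 9 were higher and 0 lower in C3 F than in B6 F at an adjusted p under 0.05 (edgeR), beside 17.7% of all genes higher, with a median log2 fold change of 0.82. Among them were Fasn (0.97, fatty acid synthase), Scd1 (1.80, a fatty acid desaturase), Acaca (0.82, acetyl-CoA carboxylase) and Fgf21 (4.32, a fasting and stress hormone). In C3 M versus B6 M, 2 of 13 (15.4%) were higher, beside 17.0% of all genes, with a median of 0.26. Between the sexes, 1 of 13 was lower in B6 F, beside 18.4% of all genes, and 3 of 13 were higher in C3 F, beside 20.1%. Of 13 clock genes, 5 were higher and 3 lower in B6 F versus B6 M, among them Nr1d1 (1.26, a repressor of the clock loop) and Per2 (-1.15, a negative arm of the clock), beside 16.2% of all genes higher and 18.4% lower. In C3 F versus C3 M 4 of 13 were lower, with Per2 at -1.41, beside 19.9% of all genes. In C3 F versus B6 F no clock gene passed the test, and in C3 M versus B6 M 4 were higher, with Dbp at 2.23 (a clock output factor), beside 17.0% of all genes. The part of feeding state and time of collection in the differences of the 9 genes was not tested.

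The residuals of the 9 genes were also set beside those of these 26 listed genes, over 20 livers and with no test. Pck1 had its lowest value with Srebf1, a driver of fat synthesis that insulin induces (Pearson r = -0.793), and its highest with the clock gene Per1 (0.707). Pklr had its highest value with Elovl6 (0.694), a fatty acid elongase, and Pygl with Fasn (0.616). Each is the extreme of 26 values, and both genes of a pair were read from the same library, with the same depth and normalization.

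Markers of other cells also differed between groups. Summed hepatocyte markers ranged from 105200 to 136200 TPM in B6 F and from 91040 to 109200 in B6 M, and from 145100 to 175100 in C3 F and from 128400 to 151000 in C3 M. The ranges of the strains did not overlap within a sex. Summed endothelial markers were 237 to 289 TPM in B6 F and 183 to 207 in B6 M, and 207 to 257 in C3 F and 169.7 to 204 in C3 M. Of 6 lymphocyte markers, 2 were at 1 TPM or more, and their sum was 13.5 to 16.2 TPM in B6 F and 4.17 to 4.63 TPM in C3 M. Of 8 erythroid loci only Alas2, an enzyme of heme synthesis, was at 1 TPM or more, and the sum was 22.6 to 35.2 TPM in B6 F and 154 to 192 in B6 M, and 17.4 to 28.7 in C3 F and 194 to 223 in C3 M. The sexes did not overlap in either strain. All 7 globin loci were listed at 0 in every library, and of 6 pancreas markers 3 (Prss1, Pnlip and Ins2) were at 0 in every library. The part of cell composition in the differences of the 9 genes was not tested.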

How the data were processed

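Liver RNA of 20 mice was measured by strand-specific, ribosomal RNA-depleted RNA sequencing. Group, sex, strain and pool were taken from the labels. The authors trimmed adapters (Cutadapt 1.9.1), aligned read pairs to mm9 with STAR 2.5.1b and obtained counts for RefSeq genes from featureCounts (Subread 1.5.0-p1). Multimapping pairs, and those shared by more than a single gene, were not counted. The authors deposited raw counts per gene, not normalized, and TPM values, which correct for gene length (its definition is not given in the sources used here). The headers of the symbol and identifier columns are exchanged in both tables, and they were read by content.

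Counts were analyzed with edgeR 4.0.16 in R 4.3.3: filterByExpr on the 4 groups, TMM normalization, and a quasi-likelihood fit of group and pool over all 20 libraries, which left 14 residual degrees of freedom. P-values were two-sided and adjusted by Benjamini-Hochberg over the 13704 genes tested. CPM values use TMM library sizes. A gene was called at an adjusted p under 0.001 and a log2 fold change over 0.5, the thresholds of the study, and an adjusted p under 0.05 was read as a looser rule. The study itself used DESeq2, which was run here as an alternative (DESeq2 1.42.0). The SE of a fold change was its size divided by the square root of the F statistic. Correlations used residuals of log2 CPM (prior count 2). The code was tested on simulated counts.

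Total counts of 27370921 to 46835745 gave each of the 9 genes at least 174 counts in every library, so counting error was small beside the spread between mice. Replicates of a group are separate mice. Over the 40 pairs of libraries within a group, log2 values correlated at 0.972 to 0.993, and counts differed by more than sampling noise (chi-square per degree of freedom 19.9 to 192). Pairs in different pools were included, so these values alone cannot show that the mice were separate. All 20 were treated as separate samples because the study names biological replicates.

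All 9 genes are given in every pairwise comparison and in the interaction. Other genes of the pathway are named where called, at most 5 in each direction and comparison, except for results that are not reported here, and the residual correlation names the 2 genes most like each of the 9. Genes of the feeding and clock lists named in the text, and the motifs searched, were chosen after their values were seen. The 9 genes and all lists were chosen with earlier results of these data known.

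Alternatives were DESeq2, limma 3.58.1 on log2-transformed TPM (pseudocount 1 or 0.1), RLE and upper-quartile normalization, no filter, no pool covariate, a block for the replicate number, a fit of only the groups compared, and each library left out. The TPM values entered limma with no further normalization. A fit without pool 3 was added after the data were seen. Promoters came from RefSeq on GRCm38.p6 and were not placed on mm9.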

Additional observations from a re-analysis of the deposited data

Results flagged for a closer look

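Of 36 sets of 5 values (9 genes in 4 groups), 1 held a value set apart by Dixon's test: G6pc in C3 F, where mouse 4 stood at 416 CPM and the nearest other female at 198 CPM, a gap of 0.886 of the whole range against a critical value of 0.71. Chance alone marks about 1 in 20 such sets. Without this mouse the G6pc difference was -0.41 in C3 F versus C3 M and -0.33 in C3 F versus B6 F on the log2 scale, beside -0.03 and 0.01 with it, and neither passed the test.

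For 3 listed genes the sex difference in C3 differed from that in B6 by the interaction test of edgeR. The interaction was 1.84 for Pdk4 (SE 0.45, adjusted p = 0.0282), 0.578 for Pdk1 (SE 0.15, adjusted p = 0.0479) and 1.37 for Fasn (SE 0.34, adjusted p = 0.0352) on the log2 scale. Pdk4 was higher in 5 of 5 C3 females than in any C3 male.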

How the results depend on the processing

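Results are given in the order B6 F versus B6 M, C3 F versus C3 M, C3 F versus B6 F, C3 M versus B6 M and the interaction. Apart from fits that left out a mouse, 376 values of the 9 genes kept direction and side of the test, 30 lost the test, 9 gained it and 26 reversed, and the cause was not tested. All 26 reversals were of small values that had not passed the test.

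The genes called at the thresholds of the study numbered 869, 945, 1288, 1321 and 55. They fell to 421, 482 and 815 in the first 3 and to 20 in the interaction without the pool covariate, and to 380, 428, 626, 786 and 4 without pool 3, a setting added after the data were seen. Fitting only the groups compared gave 625 in C3 F versus C3 M, and DESeq2 gave 183 in the interaction. At an adjusted p under 0.05 the numbers were 4742, 5479, 4515, 4733 and 405, and of the 9 genes 4, 1, 4, 4 and 0. With a mouse left out the ranges were 696 to 902, 662 to 1110, 1152 to 1284, 1108 to 1372 and 32 to 55.

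Of the 9 genes, 0 were called by edgeR in each comparison, beside 1 by DESeq2 in each sex comparison, and 0 to 1 with a mouse left out in B6 F versus B6 M (Pklr) and in C3 F versus B6 F (Slc2a2). At an adjusted p under 0.05, the numbers without the pool covariate were 2, 0, 2 and 1 in the pairwise comparisons. Without pool 3 they were 2 in the first, 0 in the third and 2 in the fourth. With only the groups compared they were 2 and 2 between the strains, by limma on TPM 3 in C3 F versus C3 M with either pseudocount, and by DESeq2 1 in the interaction (Pklr). With a mouse left out they ranged from 4 to 4, 1 to 1, 2 to 5, 1 to 4 and 0 to 2.

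Reversed log2 values were as follows. For Slc2a2 in B6 F versus B6 M limma gave 0.0195 and 0.0196 (pseudocount 1 and 0.1). For C3 F versus C3 M, G6pc gave 0.0335 by upper-quartile scaling, 0.0072 and 0.0071 by limma and 0.158 without pool 3, Pygl 0.0335 and 0.0336 by limma, and Gys2 -0.0126 with only the groups compared. For C3 F versus B6 F, Gckr gave -0.0075 by upper-quartile scaling, -0.0398 and -0.0401 by limma and -0.1187 without pool 3, and G6pc -0.0185 by upper-quartile scaling, -0.0012 without the pool covariate, -0.0205 with only the groups compared, and -0.0725 and -0.0727 by limma. For C3 M versus B6 M, Gckr gave -0.0248 without the pool covariate and -0.0169 and -0.017 by limma. In the interaction, Gckr gave 0.0701 without the pool covariate and Ppargc1a 0.0266 by limma with a pseudocount of 1. With a mouse left out, some values reversed in part of the 20 fits, and the range over all 20 fits is given for each. It was -0.0374 to 0.0478 for Fbp1 in B6 F versus B6 M. For C3 F versus C3 M it was -0.4078 to 0.1256 for G6pc and -0.0878 to 0.1126 for Gys2. For C3 F versus B6 F it was -0.0257 to 0.0809 for Gckr and -0.3345 to 0.2575 for G6pc. Gckr ranged from -0.0157 to 0.0939 in C3 M versus B6 M. In the interaction the range was -0.0755 to 0.0437 for Gckr and -0.1293 to 0.1275 for Ppargc1a.

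Neither the labels nor the study name a litter or day shared by mice of the same replicate number. Deviations of same-numbered mice correlated between -0.463 and 0.631, and between -0.204 and 0.316 with the pool removed. These values alone cannot exclude a pairing, and the main fit used none. With the replicate number as a block, 845, 933, 1222, 1263 and 40 genes were called, and 4, 1, 3, 3 and 0 of the 9 had an adjusted p under 0.05. The block ended the calls of Pck1 in C3 F versus B6 F (adjusted p = 0.0763, edgeR) and Ppargc1a in C3 M versus B6 M (adjusted p = 0.059, edgeR), and turned G6pc in C3 F versus B6 F to -0.0524 and, in the interaction, Gckr to 0.0189 and Ppargc1a to 0.0496.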
